A study of Mus musculus with 4 samples.

Results

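Polycomb repressive complex 1 (PRC1) was followed through 10 of its subunit genes in mouse embryonic stem cells depleted of Kdm5b. The genes were Rnf2, Ring1, Bmi1, Pcgf2, Pcgf6, Kdm2b, Cbx7, Cbx2, Rybp and Phc1. They were found by matching the RefSeq identifiers of 23697 loci to gene symbols, and each of the 10 had 1 locus. RNA had been measured in 4 libraries of WW6 cells, an embryonic stem cell line of mixed C57/B6J, 129/Sv and SJL origin grown without feeder cells in serum and leukemia inhibitory factor. Knockdown libraries (A and B) came from cells given siRNA against Kdm5b by transient lipid transfection. Control libraries (A and B) came from cells given siRNA against GFP in the same way, which the sample labels call a mock construct. The time of harvest is not given in the sources used here. Nothing in the labels states that A and B were grown apart, and p-values therefore reflect only how far these 4 libraries differ, which could be technical. Levels are FPKM, fragments scaled to transcript length and to sequencing depth, so levels of different genes are compared per length.

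PRC1 is a ubiquitin ligase of chromatin. RNF2 (RING1B) or RING1 forms its catalytic core with 1 of the PCGF proteins and places ubiquitin on histone H2A. Canonical complexes add a CBX protein, which binds the histone mark laid by Polycomb repressive complex 2, and a PHC protein, which can polymerise. Variant complexes carry RYBP or its paralog YAF2 in place of CBX. In embryonic stem cells both kinds sit at CpG islands of developmental genes and are known for keeping lineage regulators silent, while KDM5B, a demethylase of histone H3 lysine 4, also acts at CpG-rich promoters.

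Promoter sequences are shown because the CpG-rich start regions are where KDM2B, one of the 10 proteins, binds DNA through its zinc finger, and because the locus of Kdm2b itself holds start sites far apart. RefSeq windows of the GRCm38.p6 assembly, from 250 bases before to 50 after a start, matched 8 of the 10 genes in 11 windows; Cbx2 and Rybp had none. All 11 held more CpG dinucleotides than the median of 7 over 32851 windows, from 9 in Phc1 to 49 at a start of Kdm2b. The 2 outermost windows of Kdm2b are given, from its most upstream and its most downstream listed start, which lie 88749 bases apart (chr5:122989050-122989349 and chr5:122900301-122900600, minus strand, CpG in capitals). The upstream window holds 28 CpG and the downstream window 49.
Kdm2b upstream start: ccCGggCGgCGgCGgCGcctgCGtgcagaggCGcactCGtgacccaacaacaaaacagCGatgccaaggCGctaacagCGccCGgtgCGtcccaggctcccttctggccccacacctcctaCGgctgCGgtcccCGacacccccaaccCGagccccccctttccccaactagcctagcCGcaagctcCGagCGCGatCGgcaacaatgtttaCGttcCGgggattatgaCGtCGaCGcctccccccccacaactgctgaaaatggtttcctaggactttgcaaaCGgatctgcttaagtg
Kdm2b downstream start: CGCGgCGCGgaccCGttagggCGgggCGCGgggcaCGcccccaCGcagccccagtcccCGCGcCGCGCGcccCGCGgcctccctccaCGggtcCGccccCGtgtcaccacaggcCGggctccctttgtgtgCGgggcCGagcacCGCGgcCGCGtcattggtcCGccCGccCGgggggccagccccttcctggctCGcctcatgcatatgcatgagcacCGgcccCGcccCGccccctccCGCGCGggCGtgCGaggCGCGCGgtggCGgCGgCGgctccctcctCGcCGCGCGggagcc
The long KDM2B protein carries a JmjC demethylase domain, which the short protein made from an internal start lacks. The deposited table gives 1 value for a Kdm2b locus of 3 RefSeq transcripts, so transcripts from these starts cannot be told apart in the values below.

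The hexamer CACGTG, an E-box that MYC, MAX and MGA proteins can bind and that reads the same on both strands, was searched in the same windows. It was found in 2 of the 11 windows of these genes, those of Bmi1 and Pcgf2, against 7.15% of all windows. These paralogs are shown side by side, with the hexamer in capitals (Bmi1, chr2:18676768-18677067, plus strand; Pcgf2, chr11:97699599-97699898, minus strand).
Bmi1: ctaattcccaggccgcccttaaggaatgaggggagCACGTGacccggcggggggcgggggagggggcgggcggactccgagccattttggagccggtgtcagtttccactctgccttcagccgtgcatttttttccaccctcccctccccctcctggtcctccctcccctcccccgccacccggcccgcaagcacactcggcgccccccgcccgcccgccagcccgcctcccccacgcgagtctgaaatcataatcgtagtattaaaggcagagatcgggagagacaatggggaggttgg
Pcgf2: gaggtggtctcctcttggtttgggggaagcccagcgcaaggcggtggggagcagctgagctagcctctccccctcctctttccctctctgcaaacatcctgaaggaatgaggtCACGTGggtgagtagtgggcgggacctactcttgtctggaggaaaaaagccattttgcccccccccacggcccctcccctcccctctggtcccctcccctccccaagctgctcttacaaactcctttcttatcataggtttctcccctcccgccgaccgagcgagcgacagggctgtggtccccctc
The hexamer begins at position -215 relative to the start in Bmi1 and at -137 in Pcgf2. A match of letters is a description of the window and no measure of binding.

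The libraries were checked before the PRC1 values were read. Kdm5b RNA measured 22.7 and 31.1 FPKM in the knockdown libraries A and B, against 99.7 and 145 FPKM in control libraries A and B, so its knockdown mean was 0.220 of the control mean, although its limma adjusted p was 0.562. Stepwise low values gave an estimated depth of 76.5% and 98.1% of that of control B in knockdown A and B, against 101% in control A. Knockdown A stood apart: it listed 11953 loci at 0, against 8131 to 8609 in the other libraries, and 161 loci whose mean reached 5 FPKM were at 0 there, against 33 to 42. Embryonic stem cell markers were present in every library, with Pou5f1 between 767 and 1259 FPKM and none of the 10 markers under 1 FPKM. Their sum was 4745 and 3965 FPKM in knockdown A and B, against 3601 and 4432 FPKM in control A and B, with 5 log2 fold changes positive and 5 negative (median -0.04). Klf4, a naive-state factor with the largest difference among them, had 29.3 and 26.8 FPKM in knockdown A and B, against 46.5 and 55.4 FPKM in control A and B. Summed FPKM of 8 primitive endoderm markers was 4.25 and 3.40 in knockdown A and B, against 12.2 and 18.7 in control A and B. Cubn had 0.27 and 0.34 FPKM in knockdown A and B, against 4.23 and 7.39 FPKM in control A and B. Gata4, Sox17, Dab2 and Sox7 were listed at 0 in knockdown A. Gata6 was highest in knockdown A (2.32 FPKM), against 1.81 and 2.09 FPKM in control A and B, and was 0.0785 FPKM in knockdown B. In knockdown A, Pdgfra (1.05 FPKM) and Amn (0.61 FPKM) lay between control A (0.82 and 0.30 FPKM) and control B (1.38 and 1.87 FPKM). The sum of 8 fibroblast markers was 3.91 and 2.66 FPKM in knockdown A and B, against 10.0 and 3.72 FPKM in control A and B, with Lum at 0 in all 4 and Col1a1, Col3a1, Acta2 and Dcn also at 0 in knockdown A. For 8 trophoblast markers summed FPKM was 29.2 and 44.0 in knockdown A and B, against 65.2 and 34.1 in control A and B. Most of this sum was Krt18 and Tfap2c, the latter at 20.5 to 28.6 FPKM in all 4. Krt18 had 3.28 and 12.2 FPKM in knockdown A and B, against 38.5 and 12.4 FPKM in control A and B. Cdx2, Elf5, Krt7 and Hand1 were at 0 in knockdown A. Gcm1 had 2.31 and 1.28 FPKM in knockdown A and B, against 0.987 and 0.126 FPKM in control A and B. The part of these cells in the PRC1 values was not tested.

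PRC1 genes spanned a wide range of levels. Phc1 was the most abundant at 145 ± 32.1 FPKM over the 4 libraries (SD), followed by Rnf2 at 60.2 ± 5.15, Cbx7 at 59.8 ± 17.2, Pcgf6 at 41.9 ± 13.8 and Kdm2b at 23.2 ± 6.03 FPKM. Rybp stood at 17.2 ± 4.83, Pcgf2 at 9.22 ± 3.86, Cbx2 at 6.48 ± 1.64, Bmi1 at 4.77 ± 2.62 and Ring1 at 3.16 ± 1.22 FPKM. The mean of Phc1 lay above that of 94.9% of the 11784 tested loci (mean over the 4 libraries of 1 FPKM or more), and the mean of Ring1 above 18.4%. In this order 3 steps were clear of overlap in all 4 libraries: Phc1 over Rnf2, Pcgf6 over Kdm2b, and Rybp over Pcgf2. The ranges of all other neighbours in the order overlapped. Among the low genes, Cbx2 exceeded Bmi1 in 4 of 4 libraries although their ranges overlapped, and the lowest values of Pcgf2 (5.21 FPKM) and Cbx2 (5.24 FPKM) lay above the highest of Ring1 (4.95 FPKM).

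**Figure D1:**
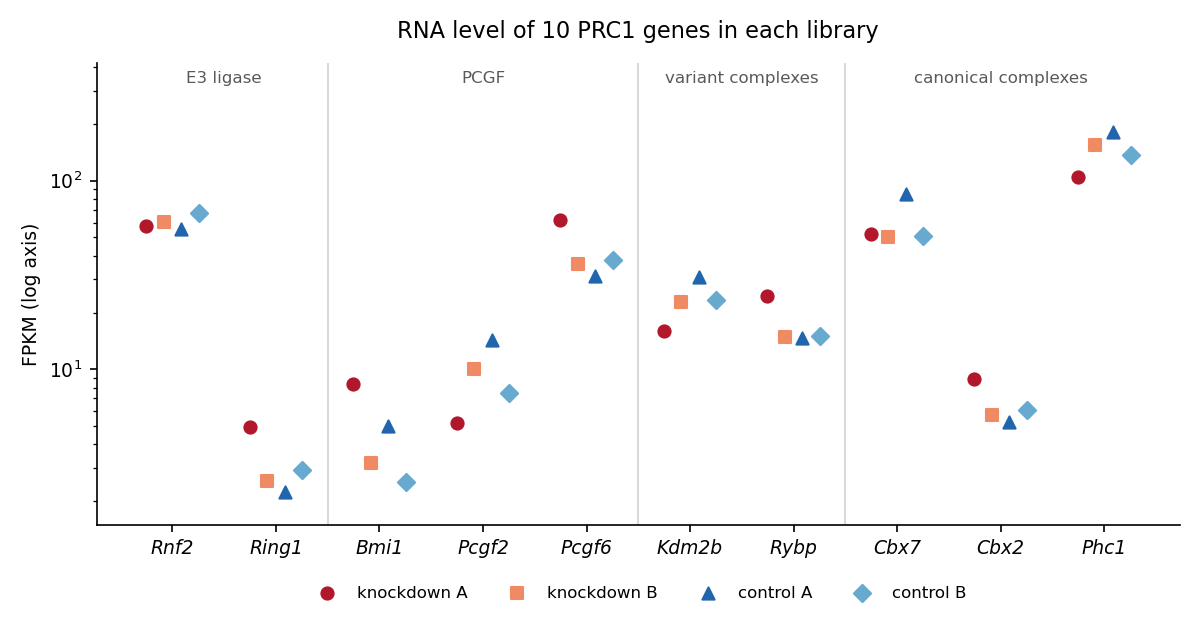
FPKM of the 10 PRC1 genes (log axis) in knockdown A, knockdown B, control A and control B, grouped by the place of the protein in the complex; each point is 1 library. Phc1 lies at 105 to 181 FPKM and Ring1 at 2.22 to 4.95 FPKM, and the knockdown and control points overlap for every gene except Kdm2b.

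Whether depletion of Kdm5b altered RNA of the complex was asked with 1 limma fit over all 11784 tested loci, on log2(FPKM + 1), a scale that understates changes of low genes. All 10 genes passed the filter, and 0 of 10 passed the limma threshold, an adjusted p under 0.05 over all loci, where 0.0339% of loci did. At an unadjusted limma p under 0.05 the count was also 0 of 10, where 2.46% of loci passed. The log2 fold changes, knockdown minus control, were positive for Ring1, Bmi1, Pcgf6, Cbx2 and Rybp and negative for Rnf2, Pcgf2, Kdm2b, Cbx7 and Phc1. Their median was 0.12, against -0.03 over all tested loci, and their median size without regard to sign was 0.37, against 0.29. The 95% intervals reached between 0.57 and 1.36 log2 units to either side, so differences smaller than that could not be told from 0. Within bulk RNA of this kind, fewer cells expressing a gene and less of its RNA per cell cannot be told apart.

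**Figure D2:**
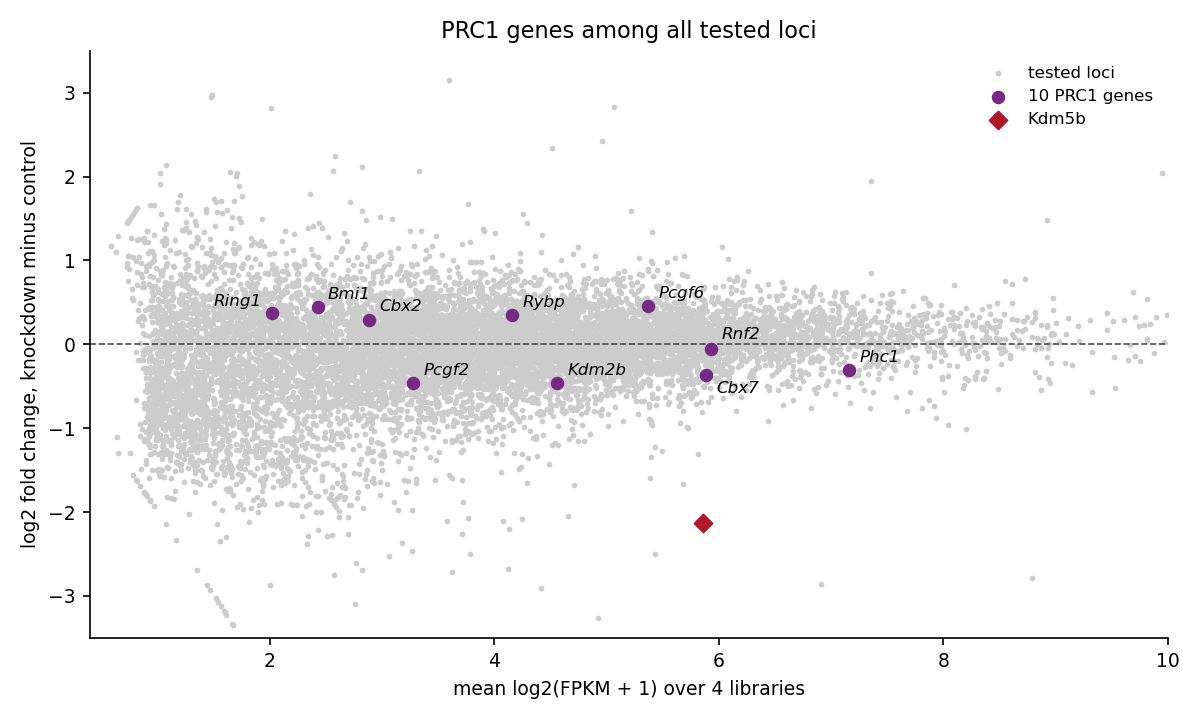
Log2 fold change (knockdown minus control, on log2(FPKM + 1)) against mean log2(FPKM + 1) over 4 libraries; grey points are tested loci (186 of 11784 lie outside the axes), purple points the 10 PRC1 genes and the red diamond Kdm5b. PRC1 genes lie between -0.46 and 0.45, and Kdm5b at -2.14.

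The catalytic pair differed in how steady it was. Rnf2 (NM_011277; mm9 chromosome 1, 153316535 to 153347953), the main E3 ligase of the complex, had 57.5 and 60.4 FPKM in knockdown A and B, against 55.7 and 67.4 FPKM in control A and B. Both knockdown values lay inside the control range, at a log2 fold change of -0.06 (95% interval -0.62 to 0.51, standard error 0.23, adjusted p = 0.977 by limma). Its highest value was 1.21 times its lowest, the smallest ratio of the 10 genes. Ring1 (NM_009066; mm9 chromosome 17, 34157736 to 34161625), the paralog that can stand in for RNF2, had 4.95 and 2.56 FPKM in knockdown A and B, against 2.22 and 2.90 FPKM in control A and B. Knockdown A alone was high and knockdown B lay between the controls (log2 fold change 0.38 with a standard error of 0.49, adjusted p = 0.926 by limma). These Ring1 values stood for an estimated 29.6 and 19.7 fragments in knockdown A and B and 17.6 and 22.7 in control A and B. RNA of Rnf2 exceeded that of Ring1 by 11.6 and 23.5 times in knockdown A and B, and by 25.1 and 23.2 times in control A and B.

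PCGF subunits, which set the identity of each PRC1 complex, were led by Pcgf6. Pcgf6 (NM_027654; mm9 chromosome 19, 47108108 to 47125335), whose complex with MGA, MAX, E2F6 and L3MBTL2 is known to silence germline genes, had 62.1 and 36.2 FPKM in knockdown A and B, against 31.1 and 38.1 FPKM in control A and B. Only knockdown A was high, and knockdown B lay between the controls (log2 fold change 0.45 with a standard error of 0.33, adjusted p = 0.918 by limma). Pcgf2 (NM_001163307, NM_001163308 and NM_009545; mm9 chromosome 11, 97550136 to 97561811), also called Mel18 and found in canonical complexes, had 5.21 and 9.98 FPKM in knockdown A and B, against 14.2 and 7.49 FPKM in control A and B. Here knockdown A was the lowest library and control A the highest (log2 fold change -0.46 with a standard error of 0.46, adjusted p = 0.918 by limma). Bmi1 (NM_007552; mm9 chromosome 2, 18598644 to 18608256), the closest paralog of Pcgf2 and a regulator of stem cell self-renewal in adult tissues, had 8.37 and 3.19 FPKM in knockdown A and B, against 5.00 and 2.52 FPKM in control A and B. The groups overlapped, with knockdown A highest and control B lowest (log2 fold change 0.45 with a standard error of 0.56, adjusted p = 0.919 by limma). The ratio of Bmi1 to Pcgf2 was 1.61 in knockdown A and 0.319 in knockdown B, against 0.351 in control A and 0.337 in control B, so 3 libraries lay close together and knockdown A showed the opposite order of these paralogs.

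Kdm2b and Rybp stand for the variant complexes. Kdm2b (NM_001003953, NM_001005866 and NM_013910; mm9 chromosome 5, 123320684 to 123439101), which brings a PCGF1-containing complex to unmethylated CpG islands, had 16.0 and 22.7 FPKM in knockdown A and B, against 30.8 and 23.2 FPKM in control A and B. It was the single gene of the 10 whose knockdown values both lay outside the control range, where 31.9% of tested loci were so placed in either direction and 16.9% on the lower side. The gap between knockdown B and control B was small, and the log2 fold change of -0.46 (standard error 0.31, 95% interval -1.22 to 0.29) had a limma adjusted p of 0.918. Rybp (NM_019743; mm9 chromosome 6, 100178558 to 100237352), which stimulates ubiquitin transfer by variant complexes, had 24.5 and 14.8 FPKM in knockdown A and B, against 14.6 and 15.0 FPKM in control A and B. Knockdown A stood above the other 3 libraries, which were nearly equal (log2 fold change 0.34 with a standard error of 0.33, adjusted p = 0.918 by limma).

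Canonical complexes were represented by Cbx7, Cbx2 and Phc1. Cbx7 (NM_144811; mm9 chromosome 15, 79746236 to 79763076), the chromodomain reader known to prevail in embryonic stem cells, had 52.1 and 50.4 FPKM in knockdown A and B, against 85.5 and 51.1 FPKM in control A and B. Control A alone was high, and the log2 fold change of -0.36 (with a standard error of 0.30, adjusted p = 0.918 by limma) became 0.0041 without control replicate A. Cbx2 (NM_007623; mm9 chromosome 11, 118884342 to 118892584), a reader that can also compact nucleosomes, had 8.88 and 5.71 FPKM in knockdown A and B, against 5.24 and 6.08 FPKM in control A and B. Knockdown A was the highest and the other 3 were close (log2 fold change 0.29 with a standard error of 0.38, adjusted p = 0.926 by limma). Phc1 (NM_001042623, NM_001271579 and NM_007905; mm9 chromosome 6, 122267748 to 122290245), whose SAM domain polymerises and clusters Polycomb sites, had 105 and 155 FPKM in knockdown A and B, against 181 and 138 FPKM in control A and B. Knockdown B lay between the controls, with knockdown A below them and a log2 fold change of -0.31 (with a standard error of 0.28, adjusted p = 0.918 by limma). No other deposited locus overlapped the interval of any of the 10 genes.

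The extreme values of the 10 genes came mostly from 2 libraries, knockdown A and control A. Knockdown A was the highest library for Ring1, Bmi1, Pcgf6, Cbx2 and Rybp and the lowest for Pcgf2, Kdm2b and Phc1, 8 of 10 genes, where it was at an extreme in 72.4% of tested loci. Control A was the highest for 4 genes and the lowest for 5, where 55.9% of tested loci had it at an extreme. Knockdown A and control A lay at opposite ends for 7 of 10 genes, 4 with knockdown A highest and 3 with control A highest, where 34.6% of tested loci had this order. Knockdown B and control B were the closest libraries: the median size of their difference over the 10 genes was 0.10 on the log2 scale and 0 of 10 differed by over 0.5, against a median of 0.23 and 20.3% over tested loci. Between knockdown A and control A the median size was 0.75 and 9 of 10 differed by over 0.5, against 0.56 and 54.4% over tested loci. The 2 controls differed from each other by over 0.5 in 3 of 10 genes, against 30.8% of tested loci, and the 2 knockdown libraries in 7 of 10, against 45.3%.

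**Figure D3:**
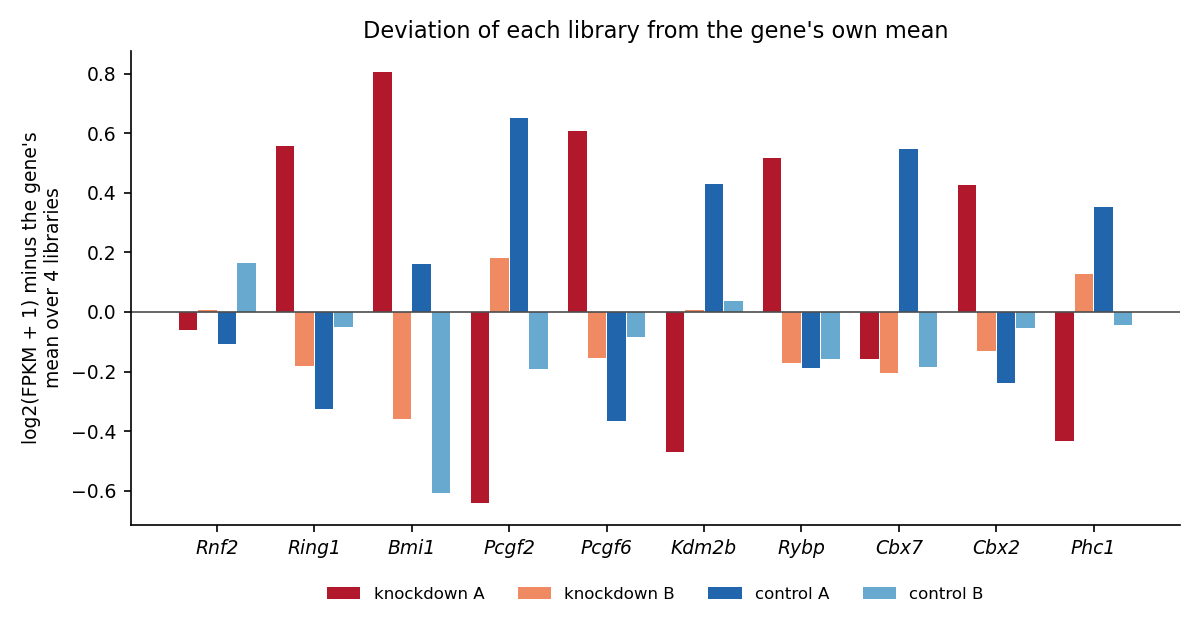
Log2(FPKM + 1) of each library minus the gene's mean over the 4 libraries, for the 10 PRC1 genes; each bar is 1 library. Knockdown A and control A form the 2 ends for 7 genes, with knockdown B and control B between them.

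Leaving out knockdown replicate A brought the log2 fold changes of the 10 genes to between -0.39 (Cbx7) and 0.07 (Pcgf6), with a median size of 0.04, against 0.21 over tested loci. Kdm2b was then at -0.23 and Bmi1 at -0.14, of opposite sign to its value with all libraries. Leaving out knockdown replicate B widened them to between -0.87 (Pcgf2) and 1.03 (Bmi1), with a median size of 0.70, against 0.47. In neither case did a PRC1 gene pass the limma threshold, where 0.152% of loci passed without knockdown A and 2.61% without knockdown B. Without control replicate A the values ran from -0.27 (Kdm2b) to 0.83 (Bmi1), and without control replicate B from -0.88 (Pcgf2) to 0.59 (Pcgf6).

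**Figure D4:**
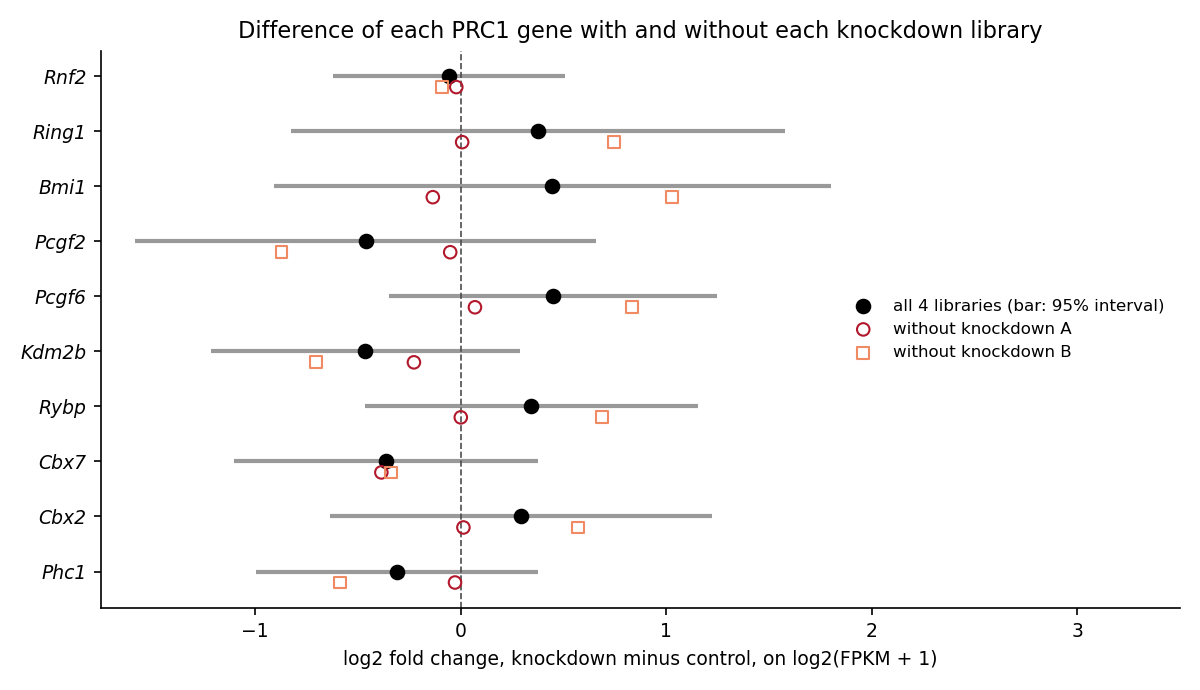
Log2 fold change of each PRC1 gene (knockdown minus control, log2(FPKM + 1)) with all 4 libraries (black, bar: 95% interval), without knockdown A (red circles) and without knockdown B (orange squares). Every interval with all libraries spans 0, and without knockdown A all genes except Cbx7, Kdm2b and Bmi1 lie within 0.07 of 0.

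Some pairs of the 10 genes lay close in profile, each pair being the nearest found for its gene. Knockdown A was at an extreme in 72.4% of tested loci. No such distance was taken for other loci, so closeness cannot be called particular to PRC1 genes. By the root mean square distance between log2(FPKM + 1) values centred on each gene over the 4 libraries, the nearest pair was Ring1 and Pcgf6 at 0.04, then Cbx2 and Rybp at 0.08 and Kdm2b and Phc1 at 0.08. Rnf2 was nearest to Cbx2 at 0.28 and Bmi1 to Rybp at 0.33. These distances describe 4 libraries and share their depth. Base composition divided the 10 genes differently: transcripts of Bmi1, Rnf2 and Rybp had 40.2%, 40.4% and 43.6% G and C, and those of Ring1, Cbx2 and Cbx7 had 60.7%, 57.6% and 57.0%. Over the 2332 tested loci richest in G and C (56.2% to 82.2%), control A lay a median of 0.18 log2 units above the mean of the other 3 libraries and knockdown A stood at -0.12. Of the 3 PRC1 genes among them, Cbx7 was highest in control A, while Ring1 and Cbx2 were lowest there. Over the 2331 loci next in G and C (52.5% to 56.2%) the medians were 0.10 in control A and -0.07 in knockdown A, and the 3 PRC1 genes among these, Pcgf2, Kdm2b and Phc1, were all highest in control A and lowest in knockdown A. The part of base composition in these values was not tested.

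Shares within each subunit family are free of the scaling between libraries. Rnf2 held 92.1% and 95.9% of the summed FPKM of Rnf2 and Ring1 in knockdown A and B, against 96.2% and 95.9% in control A and B. Of the summed FPKM of the 6 PCGF genes, Pcgf6 held 68.4% and 44.6% in knockdown A and B, against 37.7% and 44.3% in control A and B. The groups did not overlap in this share, but knockdown B exceeded control B by less than the controls differed from each other. Among the families described here, groups were also apart in the shares of Phc2 (higher) and of Pcgf1, Pcgf5, Cbx8 and Phc1 (lower). No rate of groups apart was taken for shares of other genes. In FPKM the groups of Pcgf6 did overlap, where 31.9% of tested loci had groups apart. Pcgf3 came next with 16.7% and 24.7% in knockdown A and B, against 20.6% and 26.6% in control A and B. Pcgf1, the partner of KDM2B, and Pcgf5 were listed at 0 in knockdown A, which raises the shares of the other PCGF genes there, that of Pcgf6 included. In knockdown B Pcgf1 held 10.3%, against 13.8% and 11.2% in control A and B. Pcgf2 held 5.74% and 12.3% in knockdown A and B, against 17.2% and 8.72% in control A and B, and Bmi1 9.21% and 3.93%, against 6.06% and 2.94%.

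**Figure D5:**
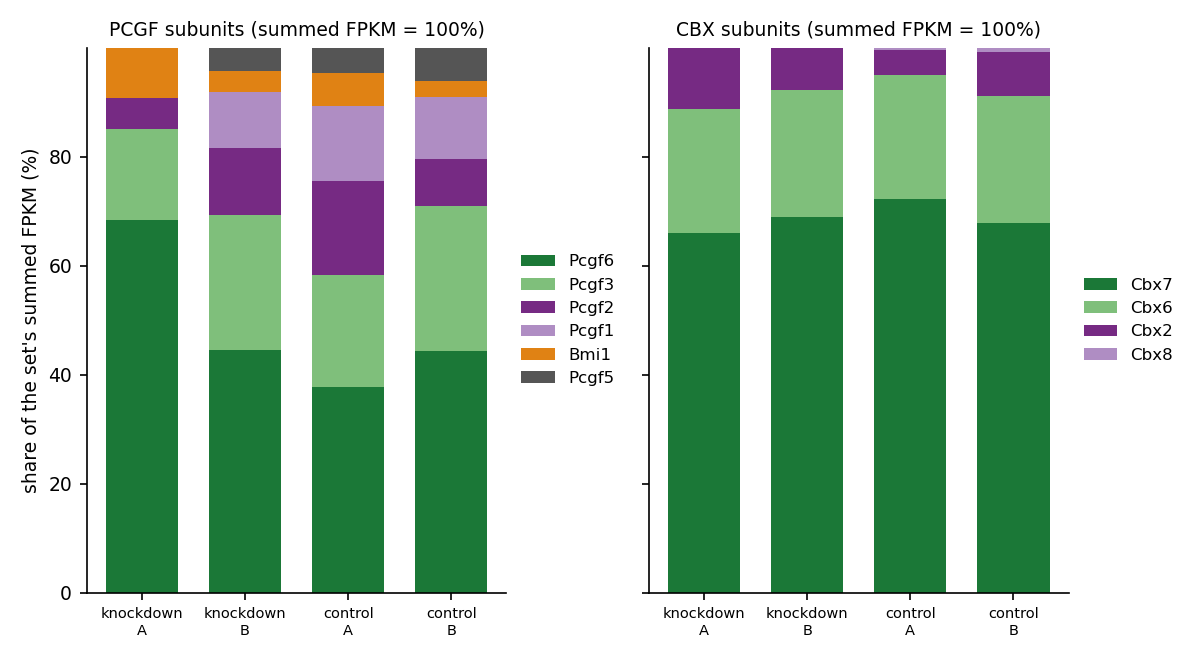
Share of the summed FPKM (percent) held by each of 6 PCGF genes (left) and 4 CBX genes (right) in knockdown A, knockdown B, control A and control B. Pcgf6 holds 37.7% to 68.4% of PCGF RNA and Cbx7 65.9% to 72.3% of the RNA of the 4 CBX genes.

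Of the summed FPKM of 4 CBX genes (Cbx7, Cbx6, Cbx2 and Cbx8), Cbx7 held 65.9% and 68.9% in knockdown A and B, against 72.3% and 67.9% in control A and B. Cbx2 held 11.2% and 7.81% in knockdown A and B, against 4.43% and 8.08% in control A and B. The remaining share was nearly all Cbx6, at 22.8% and 23.3% in knockdown A and B, against 22.8% and 23.3% in control A and B, from a locus that also carries transcripts of Npcd and Nptxr. Cbx8 was listed at 0 in both knockdown libraries, against 0.57 and 0.58 FPKM in control A and B. Phc1 held 89.5% and 94.0% of PHC RNA in knockdown A and B, against 95.5% and 95.2% in control A and B, while Phc2 RNA measured 11.1 and 6.61 FPKM in knockdown A and B, against 5.01 and 4.54 FPKM in control A and B (log2 fold change 0.73 with a standard error of 0.39, adjusted p = 0.918 by limma). Rybp held 78.6% and 85.7% of the sum of Rybp and Yaf2 in knockdown A and B, against 76.0% and 85.8% in control A and B, so the A libraries resembled each other and so did the B libraries.

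Other genes of PRC1 complexes were described from a list of 31, of which 29 were matched and 26 tested. Of these 12 had a positive and 14 a negative log2 fold change, with a median of -0.13, and 0 of 26 passed the limma threshold (0 also at an unadjusted p under 0.05). The largest differences in size were -1.91 for Pcgf1 (standard error 1.00), -1.39 for Pcgf5 (0.78) and -1.37 for Fbrsl1 (0.79), a relative of the PRC1 cofactor AUTS2. Pcgf1 had 0 and 8.38 FPKM in knockdown A and B, against 11.4 and 9.63 FPKM in control A and B, and Pcgf5, a PCGF of variant complexes, had 0 and 3.41 FPKM, against 3.80 and 5.31 FPKM. Fbrsl1 had 0.25 and 5.04 FPKM in knockdown A and B, against 7.59 and 4.93 FPKM in control A and B, and shares its interval with another locus. All 3 were thus at or near 0 in knockdown A alone, where an exact 0 can be a failed estimate. Without knockdown replicate A the median of the list was 0.03. Both knockdown values exceeded both controls for Phc2, Max and Skp1a, 3 of 26, where 15% of tested loci were so placed, and both lay below both controls for 6 of 26 (Pcgf1, Pcgf5, Fbrs, Dcaf7, Wdr5 and Hdac1), where 16.9% of tested loci were.

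Genes for the removal of ubiquitin from histone H2A, enzymes and ASXL subunits together, were described from a list of 8, of which 7 were tested. Of these 1 (Usp16) had a positive and 6 a negative log2 fold change (median -0.15, or 0.01 without knockdown replicate A), with 0 limma calls. Usp16, whose locus overlaps another, was at 0.58 (standard error 0.37), Usp22 at -0.20 and Mysm1 at -0.20, and Bap1, the catalytic subunit of the Polycomb deubiquitinase, had 26.4 and 33.1 FPKM in knockdown A and B, against 28.4 and 38.0 FPKM in control A and B. Of 12 tested genes of Polycomb repressive complex 2, which lays the mark that CBX proteins read, 5 were positive (Ezh2, Eed, Suz12, Rbbp4 and Mtf2) and 7 negative (median -0.07), with 0 limma calls. Its catalytic subunit Ezh2 had 33.2 and 29.9 FPKM in knockdown A and B, against 24.4 and 20.1 FPKM in control A and B (log2 fold change 0.49, standard error 0.26), and Mtf2, a subunit that binds CpG islands, was at 0.40 (0.25). Phf1, a related subunit whose locus overlaps another, had 0 and 1.58 FPKM in knockdown A and B, against 3.55 and 1.25 FPKM in control A and B. Its mean reached 1 FPKM only in control (2.40, against 0.79 in knockdown).

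Genes that PRC1 is known to silence were then described. Of 42 lineage regulators, 31 to 35 lay under 1 FPKM in each library, and 11 reached the mean of 1 FPKM that the test needs. Their median log2 fold change was -0.12, with 4 positive, 7 negative and 0 limma calls. Nkx2-9, a neural homeobox gene, had 0.29 and 0.45 FPKM in knockdown A and B, against 2.36 and 1.10 FPKM in control A and B. It rests on an estimated 0.99 and 1.98 fragments in knockdown A and B, against 10.8 and 4.97 in control A and B. Nkx2-9 and Gata4 reached a mean of 1 FPKM only in control (1.73 and 1.65, against 0.37 and 0.63 in knockdown). Their direction is therefore tied to their passing the filter. Gata4, an endoderm regulator, had 0 and 1.25 FPKM in knockdown A and B, against 1.84 and 1.45 FPKM in control A and B. Gata6, another, had 2.32 and 0.0785 FPKM in knockdown A and B, against 1.81 and 2.09 FPKM in control A and B, so knockdown A was above both controls and knockdown B alone was low; its locus overlaps another. Cdkn2a, a cell cycle inhibitor repressed through BMI1 in other cell types, had 3.72 and 9.36 FPKM in knockdown A and B, against 4.97 and 5.57 FPKM in control A and B.

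Germline genes of the kind silenced by the PCGF6 complex had differences of both signs and no limma call. Of 15 listed, 10 were tested, 2 with a positive and 8 with a negative log2 fold change (median -0.46), and a median of -0.32 without knockdown replicate A. Groups were apart for 2 of 10, Mael and Slc25a31, on the higher side, where 15% of tested loci were. They were apart for 5 of 10, Dazl, Sycp3, Stk31, Smc1b and Zcwpw1, on the lower side, where 16.9% were. Stk31 and Smc1b reached a mean of 1 FPKM only in control (1.69 and 1.55, against 0.995 and 0.49 in knockdown). Slc25a31 reached it only in knockdown (1.88, against 0.77 in control). The direction of these genes is therefore tied to their passing the filter. Mael, which acts in the silencing of transposons, had 22.2 and 10.3 FPKM in knockdown A and B, against 4.87 and 5.85 FPKM in control A and B, a log2 fold change of 1.35 (with a standard error of 0.43, adjusted p = 0.918 by limma). Sycp3, a part of the meiotic chromosome axis, had 9.84 and 17.1 FPKM in knockdown A and B, against 40.7 and 21.4 FPKM in control A and B (log2 fold change -1.13 with a standard error of 0.42, adjusted p = 0.918 by limma), and shares its interval with another locus. Hormad1, which marks unsynapsed meiotic axes, had 0.23 and 6.46 FPKM in knockdown A and B, against 6.56 and 6.01 FPKM in control A and B, so only knockdown A was low. Mael and Sycp3 were the 2 of these 10 genes with an unadjusted limma p under 0.05, which 2.46% of tested loci had.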

How the data were processed

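The deposited table holds FPKM for 23697 loci in 4 libraries, made by the authors with Cufflinks and Cuffdiff on the mm9 build, per the submitters' processing notes; the sources used here give no versions, aligner or strand setting. Per the labels' protocols, RNA was depleted of ribosomal RNA and strand-marked. Loci were named through RefSeq identifiers in a GRCm38.p6 table, used for names only (1 symbol for 23237 loci, several for 189, none for 271).

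FPKM carries no totals. Depth was estimated from steps of low values in single-transcript loci over 600 bp, taking 200 bp off each length; of these values 79.8% to 82.5% came within 0.15 fragments of a whole number, too few to recover counts, so no counting interval is given.

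Loci averaging 1 FPKM or more were tested on log2(FPKM + 1) with limma 3.58.1 (group alone, eBayes with trend, two-sided, Benjamini-Hochberg over all tested loci) in R 4.3.3. The fit was tested on simulated data. Lists, paralog shares and promoter windows (RefSeq, GRCm38.p6) were described without a test, in Python 3.11.15 (pandas 2.3.3, numpy 2.4.6, matplotlib 3.10.9). Named genes were all 10 PRC1 genes, the paralogs, Kdm5b, and of each list of PRC1 partners and targets the 3 tested genes with the largest absolute log2 fold change, and genes making up a count of 5 or fewer; Bap1 was added after its values were seen. The fit was repeated with a filter at 5 FPKM or none, pseudocounts of 0.1 and 0.01, upper-quartile and quantile scaling, eBayes without trend or robust, a replicate block, each library left out, and rows of a symbol summed. Some genes are not reported here. The genes and lists were chosen with earlier results of these data known.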

Additional observations from a re-analysis of the deposited data

How the results depend on the processing

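None of the 10 PRC1 genes was called under any alternative that kept all 4 libraries. Over all alternatives, 135 of 138 values for single genes kept their sign. The filters, eBayes settings, replicate block and summed rows left each gene's log2 fold change as it was, so no sign could turn there. Some kept signs lay near 0, as for Rybp (0.00092) and Ring1 (0.0075) without knockdown replicate A. The 3 that turned were Bmi1 without knockdown replicate A (-0.14, in a range to 1.03 with 1 library left out), Cbx7 without control replicate A (0.0041, in a range down to -0.73) and Rnf2 without control replicate B (0.080, in a range down to -0.19). Where 1 library is left out, the lone library of its group is assumed to vary like the other group. Over all tested loci, 4 were called (Lars2, Mir3070b, Mir3960 and Mir6236, all lower). Transcripts of Mir3070b, Mir3960 and Mir6236 have 89, 73 and 123 bp, less than the 200 bp taken off each length. Their fragments could therefore not be estimated. The replicate block called 7, a fit without the filter on low values 1 and eBayes with no trend 2. The count ran from 0 to 307 with 1 library left out, at 0 without control replicate A or B, 18 (12 higher, 6 lower) without knockdown replicate A and 307 (43 higher, 264 lower) without knockdown replicate B. The median log2 fold change of the 10 genes was -0.18 with a filter at 5 FPKM, which leaves out Ring1 and Bmi1 so that 3 of 8 remained on the positive side, and -0.13 with upper-quartile scaling, which moved the median of all tested loci to -0.27. Under that scaling 5 of the 10 genes were above 0, as without it. With 1 library left out the median ran from -0.02 to 0.24. The letters A and B are shared by both groups, but the labels do not say that they mark a batch; the A minus B differences of the groups had a correlation of -0.07 across 11784 loci, and the block called 0 PRC1 genes. Shares within families were equal when rows of a symbol were summed, which had to be so, since each of these genes had 1 row. Ring1 rests on an estimated 17.6 to 29.6 fragments a library and Bmi1 on 36.5 to 92.6, and their standard errors are the largest of the 10.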
